A study of Homo sapiens with 16 samples.

Results

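N6-methyladenosine (m6A) sites that were reproducible in a temozolomide-resistant glioma line, and on neither of the other lists of the study, numbered 6097. They are single bases, matched by chromosome, position and strand, that stand on the authors' list of reproducible U87-R sites and are absent from the lists for U87 and for U87-R with STM2457. They make up 17.3% of the 35207 U87-R sites, and the 3 lists together hold 43037 bases. The members were selected on measured scores in these same libraries, so every score given below for them is a description, and the fits that include them are read only as background.

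m6A is laid on adenosines of messenger RNA by a methyltransferase complex whose catalytic subunit is METTL3. The complex prefers an adenosine followed by a cytosine and preceded by a purine, and marked bases gather in long internal exons and near stop codons. Reader proteins of the YTH family bind the mark and change the stability and translation of the RNA. A related mark, m6Am, sits on the first transcribed adenosine next to the cap, is made by another enzyme (PCIF1), and is bound by the same antibodies.

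U87 (U87 MG) is an established human glioma line, sampled here with a DMSO control. U87-R was derived from it and resists temozolomide (TMZ), a drug that alkylates DNA; all U87-R cells, treated or not, grew in medium with 50 µM TMZ, and the untreated ones received a DMSO control. The last group is U87-R treated for 96 hours with 50 µM STM2457, an inhibitor of METTL3. Of 16 samples, 8 are m6A-eCLIP libraries (U87 and U87-R with 3 each, STM2457 with 2), in which fragmented polyA RNA is bound and crosslinked by an m6A antibody and sequencing locates the base it held. The 8 input libraries, a measure of RNA abundance, are not analysed here, so a higher score can belong to more methylation or to more RNA, and in bulk samples fewer cells with an RNA and less of it per cell cannot be told apart. Resistance and the drug in the medium cannot be told apart either, and the labels do not say that U87-R is a single clone or that replicates came from separate cultures.

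A library here is a set of called bases, each scored but without a read count, so depth is unknown. A base missing from a library's list was entered as 0, which is not a measured 0. The libraries held 149477 to 192697 called bases for the untreated lines and 105900 and 110875 for STM2457. All 10 glioma and mesenchymal markers were called in every U87-R library, and 7 of them had a reproducible U87-R site. None of the 5 neuronal, 5 oligodendrocyte and 5 epithelial markers was called in every U87-R library or had such a site. Their summed scores in U87-R were 0 to 13.8, 0 and 0 to 0.712, against 10071 to 10942 for the glioma list. Of the 5 astrocyte, 5 immune and 5 endothelial markers, 1, 2 and 2 were called in every U87-R library. A reproducible U87-R site was found for 1, 1 and 0 of them.

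The letters around a base could be read for the 269 members that lie in the promoter window of an annotated gene (RefSeq, GRCh38.p14, 250 bases before to 50 after a start), since no genome was used. The base itself was an A in all 269. The 4 members below had the highest combined score among those on the motif GGACT, the preferred m6A sequence, which is in capitals. The combined score is the geometric mean of the scores in the group's libraries that passed, and it leaves out a library that did not. Sequences run 5′ to 3′ with 10 bases on each side of the called A, and were chosen after their values were seen.
CEBPB: cgcgcacgGGACTgggaaggg
NDP: ttctcccgGGACTctgcatat
CYB561A3: tggtctccGGACTtcacttcc
SRPX2: cagcagacGGACTgagttcct

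They lie at chr20:50190843-50190863 (plus strand), chrX:43949672-43949692 (minus), chr11:61361951-61361971 (minus) and chrX:100644217-100644237 (plus). CEBPB, a stress-responsive transcription factor, scored 39.3, 47.5 and 48.1 in U87, 9.50, 27.7 and 33.2 in U87-R, and was not called with STM2457. All of its U87 scores were above all of its U87-R scores, and it is absent from the U87 list while lying outside every reproducible U87 peak. CYB561A3, a cytochrome, scored 18.4, 36.0 and 30.0 in U87 and 25, 24.6 and 34.3 in U87-R, so the lines overlapped. SRPX2, a secreted sushi-repeat protein, likewise scored 24.9, 33.7 and 29.1 in U87 against 2.76, 32.9 and 19.7 in U87-R. NDP, the secreted ligand norrin, was the only 1 of the 4 inside a U87 peak, with 3.78, 5.08 and 18.4 in U87 against 33.2, 0 and 23.5 in U87-R.

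Members with a purine before the A and a C after it, and with a score under 10 in every U87 library, are shown next by the same order. The 3 letters around the called base are in capitals.
SLC35B3: atggcgacgGACcaggggagg
ARSD: ggagcatggGACacggggagt
SBNO2: tctggaactGACtcacttgct

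Their windows are chr6:8435415-8435435, chrX:2904872-2904892 and chr19:1168808-1168828, all on the minus strand. SLC35B3, a nucleotide-sugar transporter of the Golgi, scored 0, 6.36 and 8.04 in U87 and 32.9, 0 and 14.6 in U87-R. ARSD, a sulfatase, was called in no U87 library and scored 27.7, 0 and 10.7 in U87-R. SBNO2 scored 0, 3.71 and 9.60 against 19.8, 0 and 14.6. None of these 3 was called with STM2457, and none was called in the second U87-R library.

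Other members lay within 50 nt of their gene's annotated 5′ end, as SRPX2 above did at 28 nt. Among those with readable sequence, these are the 4 with the highest combined scores, with the called A alone in capitals. None of the 4 has a purine before that A and a C after it.
UQCRQ: ggaaatgacgAacgagtcaac
BDKRB1: agcacttcccAgaagagaaaa
MAP1LC3B: ccagagtcggAttcgccgccg
CDC37: cctagtctccActgctgccgc

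They lie at chr5:132866633-132866653, chr14:96256210-96256230 and chr16:87392334-87392354 on the plus strand and chr19:10403525-10403545 on the minus strand, 1, 10, 8 and 7 nt from the 5′ end. UQCRQ, a subunit of respiratory complex III, scored 7.77, 6.08 and 0 in U87 and 51.5, 56.7 and 37.4 in U87-R, with no overlap, and 16.2 and 0 with STM2457. BDKRB1, a bradykinin receptor, scored 0, 5.37 and 14.8 against 30.8, 37.1 and 49.0, again with no overlap. MAP1LC3B, an autophagosome protein, scored 2.65, 20.9 and 3.34 in U87 and 44.4, 7.40 and 40.9 in U87-R, which overlap, and 0 and 25.9 under STM2457. CDC37, a co-chaperone of HSP90, scored 18.9, 31.2 and 29.0 in U87, 37.3, 40.3 and 44.4 in U87-R, then 72.8 and 55.3 under STM2457. It was therefore highest in the treated cells, on whose list it does not stand.

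The core motif, a purine before the A and a C after it (GAC or AAC), was found at 44 of the 269 readable members (16.4%; 95% Wilson interval 12.4% to 21.3%). The intervals here cover counting error only, and members of 1 gene are not independent. Near the 5′ end the share was 6.16% (9 of 146), and away from it 28.5% (35 of 123, 21.2% to 37.0%). Away from it here means every other readable site, including any in no gene or in more than 1, which had no distance. Every A of all promoter windows, on both strands, gave 10.7%. Sites on both the U87-R and U87 lists and away from the 5′ end gave 71.0% (132 of 186; 64.1% to 77.0%), and sites on the U87 list alone 53% (44 of 83; 42.4% to 63.4%). The members' interval overlapped neither. Sites on all 3 lists (6.32%) and on the U87-R and STM2457 lists (2.65%) gave lower values. GGACT itself was found at 11 members (4.09%), against 0.473% of every A; 44.2% of promoter windows hold it on either strand.

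Combined scores differ between these classes, so the shares were also taken among sites whose combined score lay in the members' interquartile range, 15.1 to 24.2, away from the 5′ end. The core motif was then at 17 of 64 members (26.6%; 17.3% to 38.5%), 46 of 71 sites of both lines (64.8%; 53.2% to 74.9%) and 27 of 49 sites of the U87 list alone (55.1%; 41.3% to 68.1%). The order of the 3 classes was the same in this range, and the members' interval again overlapped neither of the others. The combined score comes from the passing libraries of a single list, that of U87 for its own sites and that of U87-R for the rest. Strength of call over both lines was therefore not made equal. The windows cover starts of genes only, so these shares do not speak for the members outside them.

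**Figure D1:**
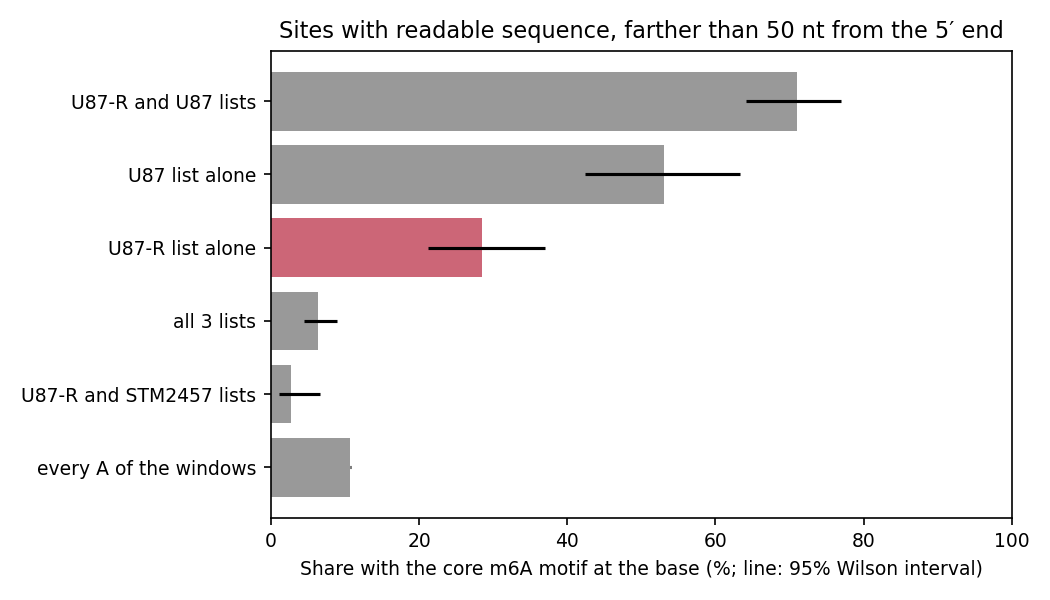
Share of sites (x axis, percent) with the core motif at the called A, for sites with readable sequence farther than 50 nt from the annotated 5′ end of their gene, by the lists a site stands on; black lines are 95% Wilson intervals. Members (red) stood at 28.5%, between every A of the windows (10.7%) and the sites of both lines (71.0%).

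Most members were not silent in U87. Of the 6097, 5849 (95.9%) were called in at least 1 U87 library: 826 in 1, 1976 in 2 and 3047 in all 3. No call in U87 was recorded for 248 (4.07%). A called member was weaker there, with a median score of 7.44, 9.07 and 8.76 in the 3 U87 libraries where called, against 20.1, 14.2 and 16.5 in the 3 U87-R libraries. With STM2457 the called members had medians of 6.48 and 6.38, and 3777 members (61.9%) were called in neither treated library. The 3 U87 libraries called 73.4%, 77.3% and 77.6% of the members, those of U87-R 97.1%, 85.9% and 94.5%, and those of STM2457 26.0% and 27.8%.

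**Figure D2:**
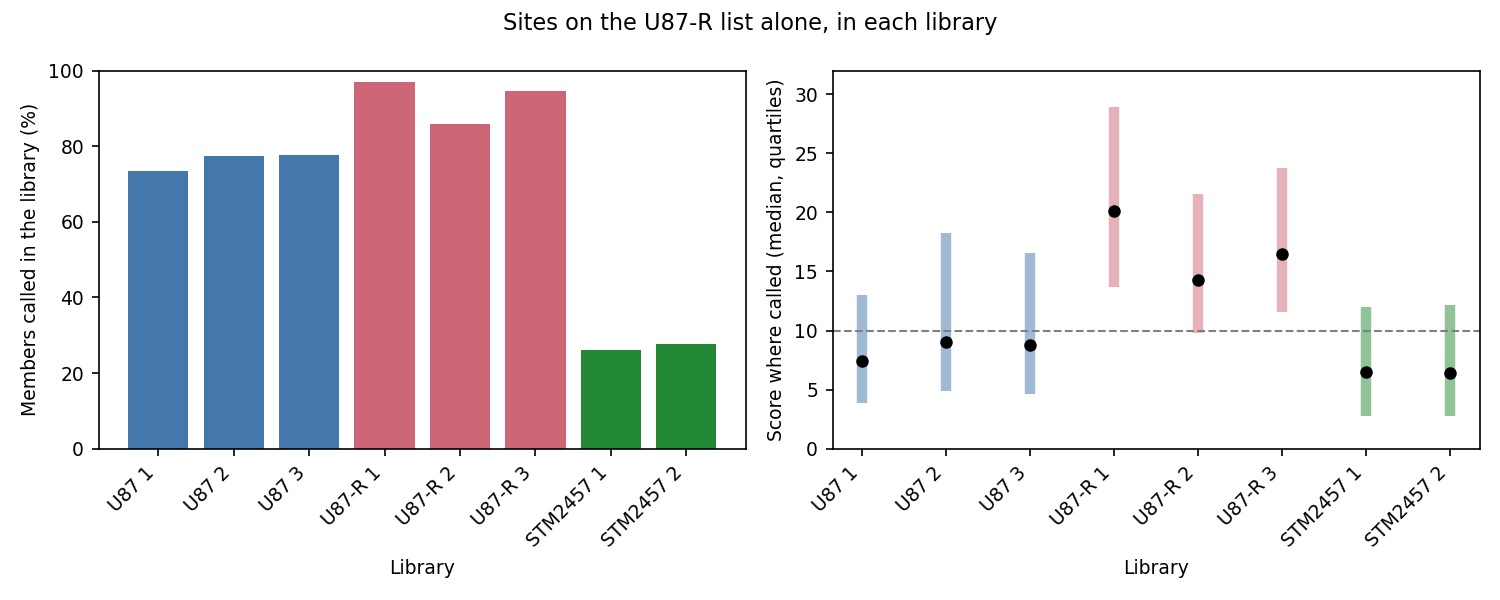
Left, percent of the 6097 members called in each library. Right, their score where called, with the median (black point), the quartiles (bar) and the limit of 10 (dashed line); the U87 medians (7.44 to 9.07) lie under the limit and the U87-R medians (14.2 to 20.1) above it.

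The conditions for a place on a list were read from the lists themselves. Wherever the letter was known, every listed base was an A, and an A with a score of at least 10 in at least 2 libraries of its group was listed in 98.2% of cases in U87 and 97.7% in U87-R when it lay in a reproducible peak of that group. Outside a peak such bases were listed in 0.182% and 0.242% of cases. By these 3 conditions 4526 members (74.2%) lay in a U87 peak but missed the score limit in U87, 666 (10.9%) missed both, 760 (12.5%) met the score limit but lay outside every U87 peak, and 145 (2.38%) met both and were still absent. Of the members, 3236 (53.1%) reached 10 in exactly 1 U87 library and 1956 in none.

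**Figure D3:**
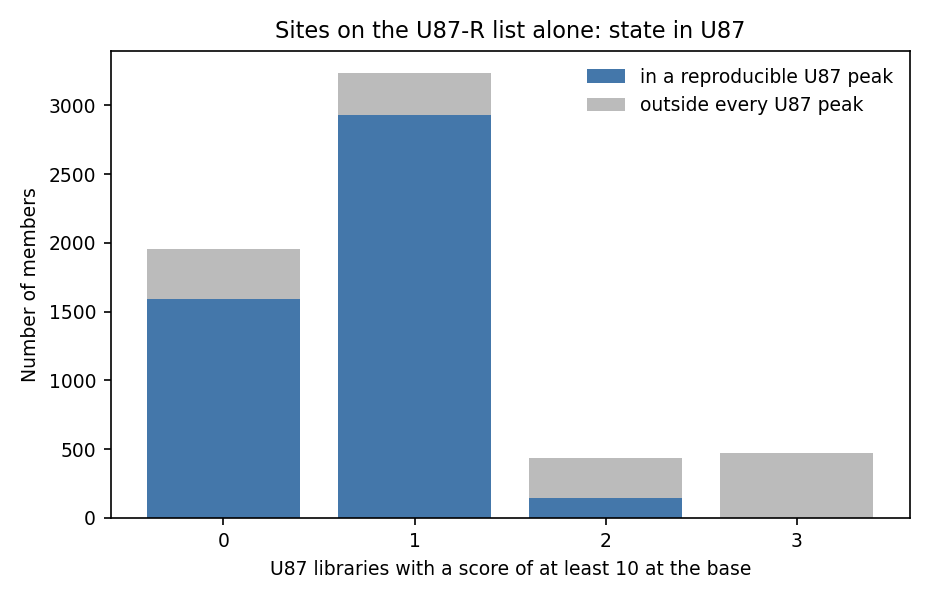
Number of members (y axis) by the number of U87 libraries in which the base scored at least 10 (x axis), split by whether it lay in a reproducible U87 peak (blue) or outside every one (grey). The tallest bar, 1 library, holds 3236 members, and all 472 members at or above 10 in 3 U87 libraries lay outside U87 peaks.

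Many members were near the limit in U87-R too. Among them, 2086 (34.2%) reached 10 in all 3 U87-R libraries, while 1195 did so in libraries 1 and 2, 2195 in libraries 1 and 3 and 621 in libraries 2 and 3. Of the sites on the U87-R and U87 lists, 77.2% reached it in all 3 U87-R libraries. The median combined score was 18.7 for members, 34.1 for sites of both lines, 64.3 for sites of all 3 lists and 18.5 for the 5093 sites of the U87 list alone. Just inside the limit, the second-highest U87-R score was 10.0031 at a base of NKRF and 10.0032 at bases of SPIN4 and EPC1. Just outside, it was 9.99949 at a base of ZFYVE26 and 9.99836 at a base of LCOR. Asking for a score of 10 in both remaining libraries left 2707 members without U87-R replicate 1, 4281 without replicate 2 and 3281 without replicate 3, and a score of at least 20 in 2 libraries left 1929.

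Scores of the lines overlapped at most members. At 1264 members (20.7%) every U87-R score was above every U87 score, and at the other 4833 (79.3%) the libraries of the lines overlapped. The choice of members favours such separation. No like share over all called bases or in the mirror class is at hand, so nothing is read from the 20.7%. The mean U87 score was at or above the mean U87-R score at 455 (7.46%). For calls, peaks and the score limit the mirror class gave like shares. Of the 5093 sites on the U87 list alone, 96.5% were called in at least 1 U87-R library, 71.5% lay in a U87-R peak, and 1035 (20.3%) met the score limit in U87-R. In the fit over all 188742 bases that 2 or more libraries of any group called (limma, Benjamini-Hochberg), 1 base was higher in U87-R than in U87 (0.00053%), and it was no member. At an unadjusted p under 0.05, 1113 members and 11684 bases in all were higher. Without U87-R replicate 2 the same fit called 207 members and 3399 bases higher. Absence from the U87 list chose the members, so nothing is read from these counts. On simulated data this fit called no shifted base after adjustment, so its count says little about single bases.

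A small group of members had no call outside U87-R. It numbered 167 (2.74%), and 85 of them were called in all 3 U87-R libraries. Those described next are 9 of the 10 with the highest lowest-library score, at most 1 per gene, and none of the 9 lay in a U87 peak. MGMT, the repair enzyme that removes methyl groups from guanine, a lesion left by TMZ, led them. Its member at chr10:129766856 (plus strand), 4127 nt before the annotated 3′ end, scored 34.8, 34.6 and 35.4 in the 3 U87-R libraries. A second MGMT member, at chr10:129766993, scored 48.3, 34.4 and 44.1, and these are the gene's only reproducible sites. Neither base was called in any U87 or STM2457 library.

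PIK3R6, a regulatory subunit of PI3-kinase gamma, scored 28.7, 34.6 and 49.6 at chr17:8828741 (minus strand). L1CAM, a neural cell adhesion molecule, scored 28.5, 30.1 and 41.2 at chrX:153862564 (minus strand), 1050 nt before its 3′ end. MAGEA1, a cancer-testis antigen, scored 35.1, 22.5 and 33.6 at chrX:153182802. These 3 bases stood above 20 in every U87-R library. DOCK8, a guanine nucleotide exchange factor, scored 19.3, 23.9 and 22.6 at chr9:464311, and its second member, at chr9:464389, scored 65.3, 32.9 and 25.7 with 16.1 and 6.68 under STM2457. Both DOCK8 bases and the MAGEA1 base lay in STM2457 peaks. REM1, a small GTPase, scored 18.1, 26.5 and 29.2 at chr20:31484618, which is 277 nt before its 3′ end. FOXF1, a forkhead transcription factor, scored 33.8, 14.8 and 17.9 at chr16:86513132, and EGLN3, a prolyl hydroxylase that targets HIF, scored 14.8, 16.6 and 25.1 at chr14:33950741. The last, at chr12:52288139 on the minus strand with 18.9, 27.9 and 39.6, falls in the span of KRT86, which is known to be read from the other strand, so it belongs to another transcript.

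**Figure D4:**
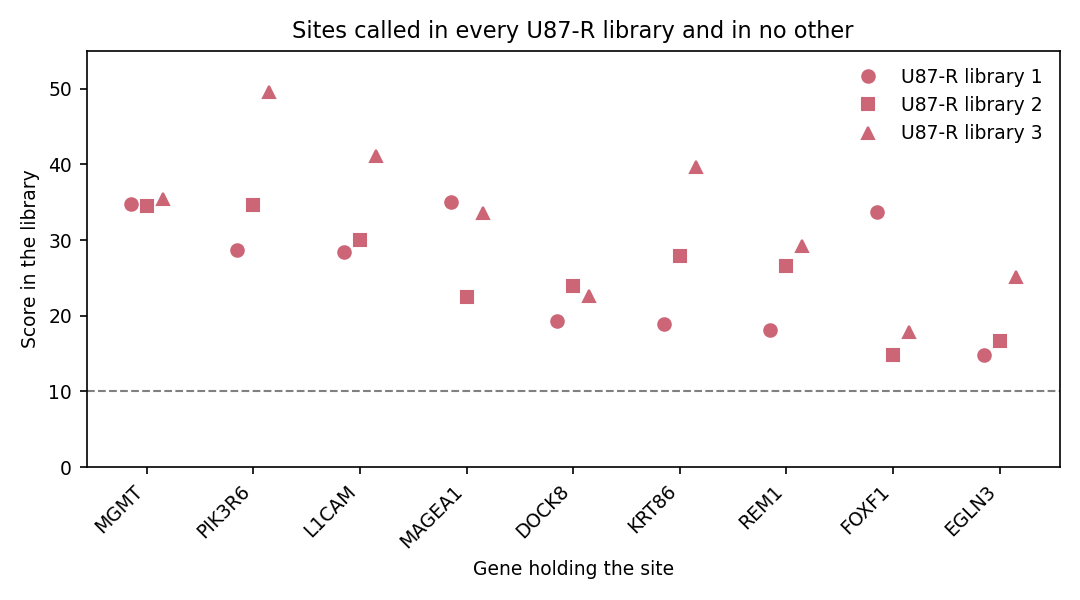
Scores (y axis) in the 3 U87-R libraries (circle, square and triangle) at the 9 members described in the text, by gene (x axis); no U87 or STM2457 library called these bases. MGMT had the narrowest spread (34.6 to 35.4), and the dashed line marks the limit of 10.

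The members with the highest combined scores were of another kind. Of the top 5, CCN2 alone was weak in U87: this matricellular growth factor scored 8.33, 39.2 and 1.49 in U87, 75.8, 102.5 and 104.4 in U87-R, then 2.97 and 7.80 under STM2457 at chr6:131949226 (minus strand). All U87-R scores were above all U87 scores, the base lay inside a U87 peak, and a U87 site stood 6 nt away. The other 4 scored alike in the lines and lay outside U87 peaks. TRIM8, a ubiquitin ligase, scored 110.8, 97.4 and 107.7 in U87 and 89.7, 103.2 and 87.6 in U87-R at chr10:102644492, 13 nt from the annotated 5′ end. P4HB, a protein disulfide isomerase, scored 66.6, 71.9 and 84.2 in U87 against 75, 87.7 and 82.7. TXNRD1, a thioredoxin reductase, scored 63.9, 76.4 and 59.7 in U87, 75.7, 82.9 and 72.5 in U87-R, then 102.5 and 85.5 under STM2457, its highest values. FJX1, a secreted regulator of growth, scored 79.5, 77.2 and 80.0 against 78.7, 87 and 79.5.

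Positions were taken from the annotated ends of genes. Of the 5784 members that fell in exactly 1 gene, 473 (8.18%) lay within 500 nt of the annotated 3′ end, against 9.44% of sites of both lines, 8.21% of the U87 list alone, 6.48% of all 3 lists and 1.70% of sites on the U87-R and STM2457 lists. Within 50 nt of the 5′ end lay 181 (3.13%), against 0.542% of sites of both lines, 1.34% of the U87 list alone, 12.5% of all 3 lists and 47.8% of sites on the U87-R and STM2457 lists. Genes of long noncoding RNAs held 3.11%. The nearest U87 site was a median of 120 nt away, within 5 nt for 2.66% of members, within 50 nt for 31.3% and within 500 nt for 70.4%. Exons and untranslated regions were not used here, so these distances are genomic and include introns.

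Absence from the STM2457 list was then counted with and without a U87 site. Of the 7191 U87-R sites not on the U87 list, 84.8% were missing from the STM2457 list (these are the members), against 68.0% of the 28016 that U87 shared. Farther than 50 nt from the 5′ end the shares were 91.5% and 70.8%, and nearer they were 27.5% and 8.46%. Members had lower combined scores than the shared sites (medians of 18.7 against 34.1 and 64.3), and the part of this in the difference was not tested. Base by base, 2290 of the 6097 members (37.6%) were lower with STM2457 than in U87-R and 3 were higher, while 31894 of all 188742 bases (16.9%) were lower and 12546 higher. Since absence from the STM2457 list chose the members, nothing is read from that difference. Without STM2457 replicate 1 or 2 the count of members fell to 1094 and 1129. With libraries centred on their medians 1923 members were lower, and 26360 of all bases were lower and 16351 higher.

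The members fell in 3501 genes, 48.7% of the 7184 genes with a U87-R site. Most genes held few: 2191 had 1 member, 763 had 2, 507 had 3 to 5 and 40 had 6 or more. Genes with no U87 site at all numbered 575 and held 802 members (13.9% of those in 1 gene), and 4982 members stood in 2926 genes that had a U87 site elsewhere. In 602 genes every U87-R site was a member.

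AHNAK2, a very large scaffold protein, held the most members, 13 of its 41 U87-R sites, beside 32 U87 sites. Their summed scores were 129, 100.1 and 180 in U87, 404, 182 and 328 in U87-R, then 0 and 32.2 under STM2457. TASOR2, a relative of a subunit of the HUSH silencing complex, held 11 members, all in U87 peaks, with sums of 54.2, 164 and 27.9 in U87 and 309, 239 and 201 in U87-R. MKI67, the Ki-67 proliferation protein, held 9, with 49.3, 190 and 51.6 against 122, 249 and 85.6. These sums did not overlap between the lines in AHNAK2 and TASOR2, which the selection of members favours, and overlapped in MKI67. Single members overlapped in AHNAK2 and TASOR2 too. CHD8, a chromodomain remodeller, CELSR1, an adhesion receptor, and PRECSIT, a long noncoding RNA, held 9 members each, and DST, a cytoskeletal linker, held 8. PCDH17, a protocadherin, held 10 of its 15 U87-R sites as members and had 2 U87 sites.

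Some genes with many members had no U87 site. PDE10A, a phosphodiesterase of cyclic nucleotides, had 9 members as its only U87-R sites, with sums of 6.19, 26.4 and 11.1 in U87 and 198, 163 and 135 in U87-R. INHBE, an activin subunit induced by stress, held 6 members between 1033 and 1658 nt before its 3′ end, with sums of 0, 0.229 and 4.07 in U87 and 441, 41.7 and 302 in U87-R. ALPK2, a kinase, and ZNF300, a zinc finger repressor, held 6 each. All 6 INHBE members lay in U87 peaks, as did 2 in PDE10A and 2 in ALPK2, but none in ZNF300. The second U87-R library was the lowest of the 3 at INHBE by a wide margin. The sums over members did not overlap between the lines in any of these 4 genes, although single members did in some. The selection of members and of genes without a U87 site favours such separation. No share over all genes is at hand, so nothing is read from it.

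To set the members beside the rest of their genes, the scores of all other called bases of a gene were summed in each library. Bases of any letter entered the sums, which hold antibody scores and do not measure RNA. Of 8954 U87-R bases of known letter that met the score limit, 2165 in a peak and 1845 outside one were not an A. These sums come from the same libraries that chose the members, so they are set beside the background and not read as independent support. Outside its members MGMT summed 0 in all U87 libraries, 74.5, 31.7 and 27.7 in U87-R, then 0.238 and 0.268 under STM2457. DOCK8 summed 0 in U87, 104, 57.1 and 96.2 in U87-R, then 75.7 and 81.4 under STM2457, and ZNF300 summed 0 in U87, 91.0, 57.3 and 58.0 in U87-R, then 119 and 99.1 under STM2457. With the inhibitor the other bases of MGMT were nearly gone, while in DOCK8 and ZNF300 they remained within or above the range in U87-R. PDE10A went from 208, 93.7 and 176 in U87-R to 0 and 0.360, REM1 from 30.1, 27.5 and 39.2 to 0 and 0, and FOXF1 from 85.4, 49.6 and 28.7 to 0 and 11.2. PIK3R6 stood at 85.1 and 142 with STM2457, below its 198, 195 and 196 in U87-R. INHBE stood at 283 and 244, within its range of 125 to 688. L1CAM, which had 2 U87 sites, summed 53.2, 103 and 210 in U87 against 591, 174 and 117 in U87-R, so the lines overlapped. MAGEA1 summed 0, 67.7 and 10.8 in U87 and 201, 198 and 252 in U87-R, then 262 and 235 under STM2457.

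Genes with U87 sites showed smaller differences. PCDH17 summed 82.2, 174 and 129 in U87 against 702, 322 and 460 in U87-R, a difference of 1.93 ± 0.34 (SE) on the log2(sum + 1) scale. KLF4, a stem cell and immediate early factor, summed 26.3, 70.8 and 39.9 against 278, 125 and 196 (2.14 ± 0.47), and its 4 members, none called with STM2457, summed 12.3, 37.5 and 15.3 against 146, 88.3 and 93.0. EPHA2, an ephrin receptor kinase, summed 287, 619 and 379 against 952, 688 and 698 (0.92 ± 0.28). Its strongest member, at chr1:16148464, scored 8.97, 33.8 and 9.13 in U87 and 88.0, 53.4 and 73.1 in U87-R. In these 3 genes the lines did not overlap at the other bases. By limma, PCDH17 passed (adjusted p 0.036), though not in every alternative, while KLF4 (0.087) and EPHA2 (0.234) did not pass. How many of all genes had lines without overlap was not counted. In AHNAK2 (0.40 ± 0.22) and MKI67 (0.15 ± 0.32) they overlapped.

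**Figure D5:**
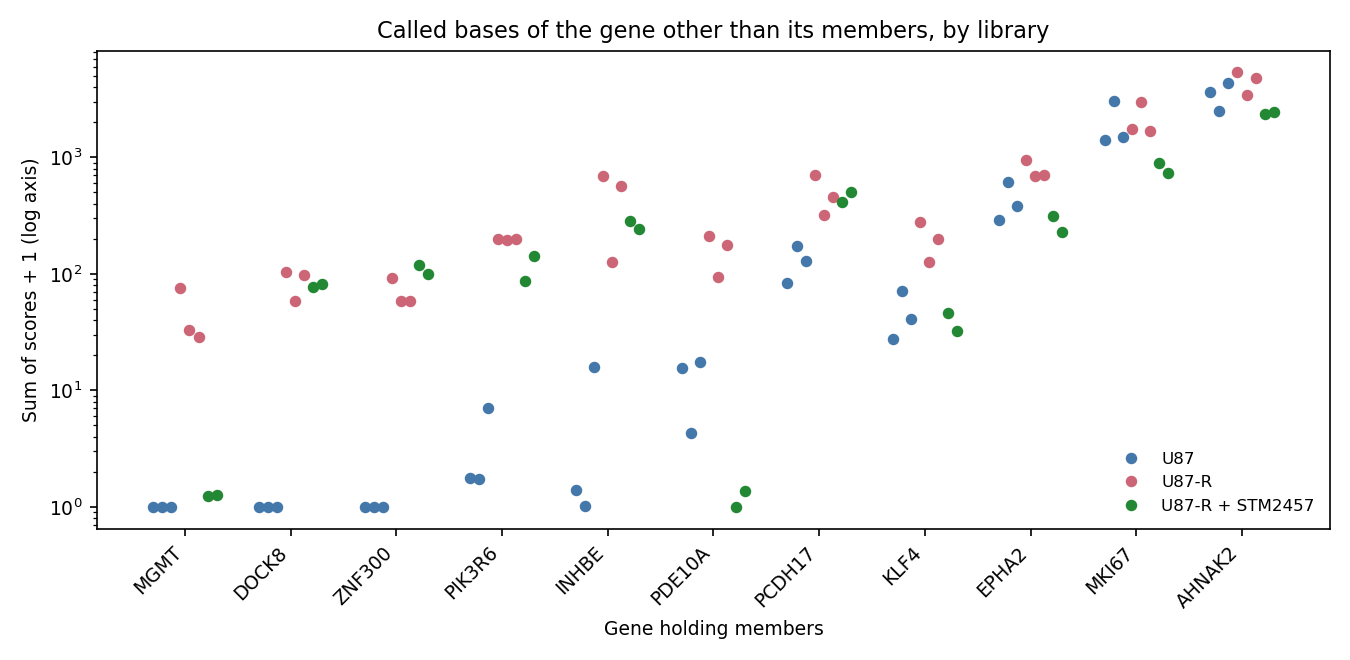
Sum of scores + 1 (log y axis) over the called bases of a gene that are not members, in each of the 8 libraries, for 11 genes that hold members (x axis). MGMT, DOCK8 and ZNF300 were at 0 in U87, while the lines overlap in MKI67 and AHNAK2.

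Across genes, 43 of 3469 tested genes with a member (1.24%) were higher in U87-R at their other bases and 1 (0.0288%) was lower (limma, adjusted p under 0.05), against 74 (0.706%) and 37 (0.353%) of all 10487. Of the 43, 29 were among the 543 genes without a U87 site and 14 among the 2926 with one. The U87 list behind that split comes from the same U87 libraries, which favours such a contrast, so nothing is read from it. The median log2 difference was 0.15 for genes with members and 0.09 for all. The count of 43 was 28 without U87 replicate 3, 19 and 23 without U87-R replicates 1 and 3, and 23 and 24 without STM2457 replicates 1 and 2. With STM2457, 1678 genes with members (48.4%) were lower at their other bases than in U87-R and 46 (1.33%) higher, against 3769 (35.9%) and 668 (6.37%) of all genes; the 1678 became 1077 without STM2457 replicate 1. Centring each library on its median moved the median of all genes from -0.61 to -0.08 in this comparison, with 2467 lower and 1622 higher among all genes and 1043 lower among genes with members.

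Of the 10 gene lists, DNA repair had the highest share of members among its sites. Of 36 listed genes 21 had a U87-R site and 14 of these a member, and 25 of their 74 U87-R sites (33.8%) were members, against 17.2% over all genes. MLH3, a mismatch repair subunit, held 4 and BRCA1, of homologous recombination, held 3. MGMT, MSH6, TP53BP1, PMS2, XRCC1 and BRCA2 held 2 each, and FANCI, MSH3, PARP1, ATR and ALKBH2 held 1. MGMT, XRCC1, FANCI and MSH3 had no U87 site. At their other bases 2 of 34 tested repair genes passed the test, both higher in U87-R, with a median log2 difference of 0.35; the 34 include genes without members. Weak calls in U87 were seen in this list as well. The 4 in MLH3 lay in U87 peaks and scored 0 to 31.1 in U87 and 2.03 to 25.2 in U87-R, so the lines overlapped.

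Zinc finger genes named ZNF with a number came next, with 283 of 998 U87-R sites (28.4%) as members, in 144 of 208 genes, 45 of them without a U87 site. At their other bases 20 of 291 tested were higher in U87-R and 1 lower, which is 20 of the 74 higher genes of the series. ZNF462 held 8 members and ZNF800 held 7. Chromatin regulators had 80 of 392 sites (20.4%) as members in 28 of 35 genes, led by CHD8 with 9 and CHD7 with 6. Cell cycle genes had 22 of 110, led by MKI67 with 9 and FOXM1 with 4, and glioma stem and neural progenitor factors 13 of 68 (19.1%).

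The lists with a lower share than the 17.2% of all genes were stress response with 23 of 165 sites (13.9%), receptor kinase signalling with 31 of 231 sites (13.4%), immediate early genes with 21 of 183 (11.5%), m6A machinery with 15 of 155 (9.68%) and matrix genes with 14 of 175 (8.00%). Stress response was led by INHBE with 6 members and EIF2AK3, the kinase PERK, with 3. In receptor signalling, SPRY4, an inhibitor of the MAPK pathway, held 7 members and EPHA2 held 4. EGFR held 2 of its 15 U87-R sites as members and had 18 U87 sites. At 1 member, chr7:55205731, no U87 library had a call and U87-R scored 14.5, 22.1 and 3.14. That base lay in a U87 peak and scored 0 and 35.9 with STM2457. The other, chr7:55206612, scored 28.1, 19.5 and 27.9 in U87 against 37.2, 23.3 and 35.9 in U87-R. METTL3 itself held 2 members, at chr14:21503348 and chr14:21503382. The first scored 8.39, 9.97 and 12.1 in U87 and 29.1, 0 and 31.0 in U87-R, and the second 16.7, 9.45 and 0 against 28.1, 25.4 and 13.0. Neither was called with STM2457, and the lines overlapped at both. WTAP, its partner in the complex, held 2. MALAT1, a nuclear long noncoding RNA, held 1, at chr11:65502805, with 47.3, 33.8 and 39.6 in U87 and 50.6, 29.0 and 50.6 in U87-R, and MAT2A, which makes the methyl donor, held none.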

How the data were processed

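The members, gene lists and tests were chosen with earlier results of these data known. Reads were handled with STAR, cutadapt and UMI-tools on hg38, per the submitters' processing notes; the callers, versions and settings were not given in the sources used here. Per called base and library, the authors deposited a score, the smallest of 4 they list. In their deposited lists of reproducible sites and peaks, the authors gave the fraction of a group's libraries that passed and a combined score. Both values were used as deposited, with no scaling between libraries.

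Sites were matched at the same base and strand. Genes came from RefSeq (GRCh38.p14), with strands from its promoter table (4821 members) or, failing that, from called bases where at least 5 lay in the span alone and at least 80% shared a strand (963 members, among them those of PIK3R6, MAGEA1, REM1, FOXF1, TRIM8, CELSR1, CHD7, FOXM1, INHBE and ZNF462). Where both were known they gave the same strand in 97.5% of genes. Of the members, 221 fell in no gene and 92 in more than 1. A trended limma model (limma 3.58.1, R 4.3.3) was fitted to log2(score + 1) per base and log2(sum + 1) per gene (sums of at least 10 in at least 2 libraries), with 3 group means over 8 libraries and Benjamini-Hochberg adjustment. The script was tested on simulated data. Separate cultures are not stated, so p-values cover the spread among these libraries alone, which may be technical.

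Genes were named by count of members (10 genes, and 5 without a U87 site), by list (up to 2 each) and, in any case, MGMT, METTL3, EGFR, MALAT1 and MAT2A. Sites were named by lowest U87-R score among those called nowhere else (10), by combined score (5) and at the score limit. Results for some items that these rules name are not reported here. Other genes of the repair list, which count 5 or fewer members each, and all sequences but that of TXNRD1, which is not printed, were named after their values were seen. Alternatives covered the match, the score, the pseudocount, filters, centring, a replicate block and leaving out libraries.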

Additional observations from a re-analysis of the deposited data

How the results depend on the processing

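The number of members depended on the definition. It was 6032 and 5903 with no site of another list within 2 or 5 bases, 1683 with a pass in all U87-R libraries, 1929 with a score of at least 20, 167 without a call in any U87 or STM2457 library, and 2707 to 4281 when a U87-R library was left out. Chosen after seeing the data, 248 had no call in U87, 1426 lay outside U87 peaks and 5192 missed the score limit there. Members higher than in U87 numbered 110 with a pseudocount of 0.1, 1 with a pseudocount of 10, 1 among bases called in at least 3 libraries, and 0 to 207 when a library was left out. Members lower with STM2457 numbered 1415 with a pseudocount of 10 and 1094 to 2423 when a library was left out. Genes with members that were higher in U87-R at their other bases numbered 19 to 61 when a library was left out, and those lower with STM2457 numbered 1043 after centring and 1077 to 1936 when a library was left out. The cause of these shifts was not tested. The labels do not say whether replicate numbers pair the libraries. Correlations of same-numbered U87 and U87-R libraries were 0.0964, 0.309 and 0.105. Differently numbered ones ran from -0.201 to 0.144, and all of those with a replicate 2 were negative (-0.201 to -0.170). A factor shared by the second libraries was not tested. Blocking on the replicate number (replicate block), 28 genes with members were higher in U87-R and 1455 lower with STM2457, and 0 and 1617 members passed. For 42 results on single genes, 480 of 546 values kept direction and side of the threshold, 66 fell short of it and 0 reversed. Without read counts, depth sets no limit that can be given.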
